A study of Mus musculus with 20 samples.

Results

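The livers described here are the 4 whose sample titles begin, after P62, with tg_1423_2-8 or wt_1423_2-8, and the number in these titles is called the chosen number. They are 2 of 10 IMP2-2 transgenic (tg) and 2 of 10 wildtype (wt) livers, and were set against the 16 arrays with another number (8 tg, 8 wt). The number was chosen on 2 clock genes of these same arrays, *Dbp* and *Nfil3*, so the difference between it and the other numbers is given as a description. Counts past a threshold and adjusted p values of that difference support nothing further, and none is offered as independent evidence.

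All 20 mice were 5 weeks old, untreated and of the mixed background C57Bl6J/DBA2, with food at will and a regular light/dark cycle, and were killed by cervical dislocation. Tg mice carry IMP2-2, also called p62, a splice variant of the mRNA binding protein IMP2, as a liver-specific transgene by the series title. The promoter, the number of founder lines, the sex of the mice, the hour at which each liver was taken and what the label number marks are not given in the sources used here. The series holds 6 label numbers, each of them in both genotypes.

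The molecular clock of the liver is a loop of transcription factors that turns over once a day. The activators *Arntl* (the gene of BMAL1), *Clock* and *Npas2* bind E-box sequences and switch on their own repressors, the Per and Cry genes, *Ciart* and the nuclear receptors *Nr1d1* and *Nr1d2*, which in turn hold back *Arntl*, *Npas2* and *Nfil3*. *Dbp*, *Tef* and *Hlf* activate genes through D-box sequences, and *Nfil3* represses at the same sequences. In mice these factors run in opposite phases over the day, so *Dbp* is high at hours when *Arntl* is low, and many metabolic genes follow these factors. The hour at which the livers described here were taken is not given, and the cause of their difference was not tested.

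Promoters of 5 genes of the loop are shown because the genes lie on opposite sides of the difference described next. Each window runs from 250 bases before to 50 bases after a RefSeq start site (GRCm38.p6), is written along the gene's strand, and carries in capitals the letters searched for: the E-box CACGTG in *Ciart* and *Per1*, the D-box (TTATGTAA, TTATGCAA or TTACGTAA) in *Per1* and *Per3*, and the ROR element TAGGTCA, to which *Rora* and the Nr1d receptors bind, in *Arntl* and, on the opposite strand as TGACCTA, in *Nfil3*. *Arntl* and *Per1* have 2 windows each, and the one with the letters is shown.
*Ciart*, chr3:95882179-95882478, minus strand: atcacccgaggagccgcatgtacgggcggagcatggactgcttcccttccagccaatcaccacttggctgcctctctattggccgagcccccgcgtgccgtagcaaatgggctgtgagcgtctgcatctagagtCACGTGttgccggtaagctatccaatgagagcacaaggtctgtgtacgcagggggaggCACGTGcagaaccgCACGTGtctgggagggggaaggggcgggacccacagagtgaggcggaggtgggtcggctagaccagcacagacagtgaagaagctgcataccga
*Per1*, chr11:69098699-69098998, plus strand: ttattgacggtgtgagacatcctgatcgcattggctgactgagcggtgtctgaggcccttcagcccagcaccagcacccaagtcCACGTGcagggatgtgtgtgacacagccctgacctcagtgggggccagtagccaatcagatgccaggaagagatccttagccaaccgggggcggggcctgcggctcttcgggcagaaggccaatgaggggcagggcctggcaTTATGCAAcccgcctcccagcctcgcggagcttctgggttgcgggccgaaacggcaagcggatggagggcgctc
*Per3*, chr4:151044616-151044915, minus strand: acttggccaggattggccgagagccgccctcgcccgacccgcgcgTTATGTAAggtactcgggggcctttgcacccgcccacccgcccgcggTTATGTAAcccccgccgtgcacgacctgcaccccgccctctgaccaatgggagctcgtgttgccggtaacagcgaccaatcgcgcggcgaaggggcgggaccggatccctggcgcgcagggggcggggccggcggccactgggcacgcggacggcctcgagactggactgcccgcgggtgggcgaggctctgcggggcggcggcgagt
*Arntl*, chr7:113207261-113207560, plus strand: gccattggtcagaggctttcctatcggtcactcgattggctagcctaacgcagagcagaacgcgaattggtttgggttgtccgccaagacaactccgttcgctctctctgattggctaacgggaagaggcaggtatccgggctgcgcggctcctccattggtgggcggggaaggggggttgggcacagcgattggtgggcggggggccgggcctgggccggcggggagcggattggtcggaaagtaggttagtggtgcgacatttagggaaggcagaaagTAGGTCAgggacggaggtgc
*Nfil3*, chr13:52980990-52981289, minus strand: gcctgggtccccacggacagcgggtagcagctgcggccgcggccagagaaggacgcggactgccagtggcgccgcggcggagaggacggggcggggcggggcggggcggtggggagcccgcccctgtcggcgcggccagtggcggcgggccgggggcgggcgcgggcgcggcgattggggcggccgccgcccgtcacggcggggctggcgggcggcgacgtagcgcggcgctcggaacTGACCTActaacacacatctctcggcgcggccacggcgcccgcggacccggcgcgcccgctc

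*Ciart* holds 3 E-boxes, at -116, -58 and -44 from its start. Of the 10 evening-arm genes with a window, 4 hold an E-box, 2 a D-box and 0 a ROR element. Of the 6 morning-arm genes with a window, 2 hold a ROR element, 1 (*Cry1*) an E-box and 0 a D-box. Over all 32851 windows, 7.15% hold the E-box, 1.78% the D-box and 2.61% the ROR element, on either strand. *Dbp*, *Hlf*, *Nr1d1*, *Nr1d2* and *Cry2* hold none of these letters in their windows. A match is only a description of the letters in the window.

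Signal is given on the log2 scale of the RMA values, so 1 unit is a 2-fold difference. *Dbp*, the D-box activator that chose the number, read 9.36 and 10.05 in the tg livers of the chosen number and 11.07 and 10.98 in the wt livers. The 8 other tg livers read 4.73 to 5.86 (median 5.21) and the 8 other wt livers 5.13 to 6.06 (median 5.72). No array of either side came near the other. With genotype in the model the difference was 4.90 ± 0.19 log2 units (SE, 4 against 16 arrays), or 29.9-fold. *Nfil3*, the repressor that completes the choice, read 6.93 and 7.13 in tg and 6.91 and 6.71 in wt livers of the chosen number. It read 8.46 to 9.14 in the other tg and 8.60 to 9.22 in the other wt livers. It was thus lower on all 4 arrays, by 1.87 ± 0.12 log2 units or 3.67-fold.

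**Figure D1:**
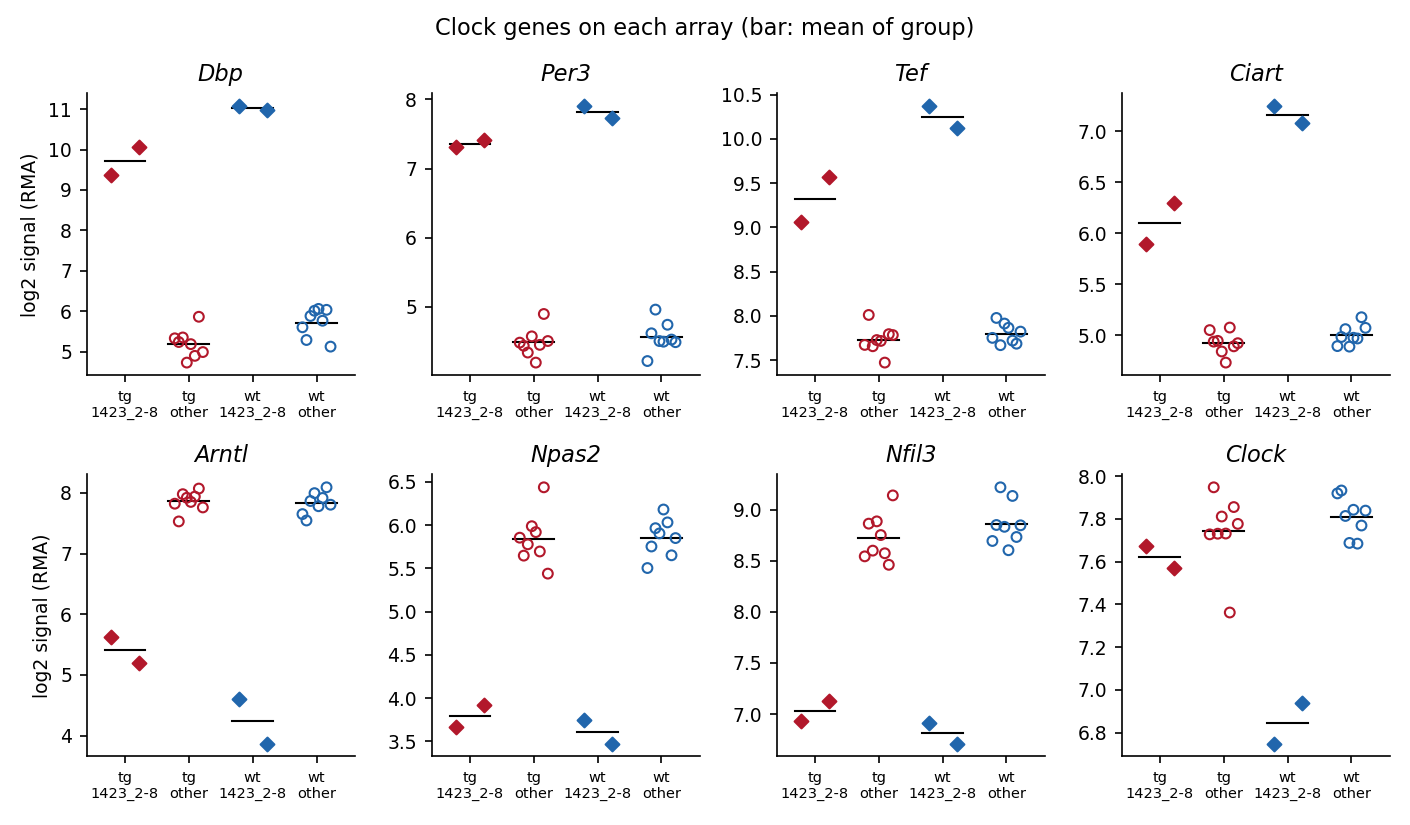
Log2 signal (y axis, RMA) of 8 clock genes on each of the 20 arrays, by genotype and label number (x axis). Diamonds are the 2 tg and 2 wt livers of the chosen number, open circles the 8 tg and 8 wt livers of other numbers, and bars group means. *Dbp* lies at 9.36 to 11.07 in the chosen number and at 4.73 to 6.06 elsewhere, while the tg livers of the chosen number overlap with the other tg livers for *Clock*.

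The genes that rise toward the evening, here called the evening arm, shared the direction of *Dbp*. On 9 of the 12 genes all 4 arrays of the chosen number lay above every other array of their genotype, against 2.51% of the 18194 genes measured. *Dbp*, which chose the number, is among the 9, so the count is a description only. *Per3*, a repressor of the loop, read 7.31 and 7.41 in tg and 7.90 and 7.73 in wt livers of the chosen number, where the other 16 arrays ranged from 4.20 to 4.96. The difference was 3.06 ± 0.11 log2 units, or 8.32-fold. *Tef*, a relative of *Dbp*, read 9.06 and 9.57 in tg and 10.37 and 10.13 in wt livers, above the range of 7.47 to 8.01 elsewhere, with a difference of 2.02 ± 0.13. *Ciart*, which blocks BMAL1, read 5.90, 6.30, 7.25 and 7.08 in the same order, against 4.73 to 5.18 elsewhere, with a difference of 1.67 ± 0.13.

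The other repressors of the loop differed by less. *Per1* was higher by 1.64 ± 0.27, with 7.18 and 7.51 in tg and 7.80 and 8.00 in wt livers, and its lowest value cleared the highest other tg liver (7.08) narrowly. *Per2* was higher by 1.29 ± 0.13, *Nr1d2* by 1.52 ± 0.22, *Hlf* by 1.10 ± 0.10 and *Cry2* by 0.80 ± 0.12 log2 units. A second *Per2* probe set gave 2.59 ± 0.26, so the size of the *Per2* difference depends on the probe set, and the second *Dbp* probe set gave 3.96 ± 0.15. The second probe sets of *Nr1d2* (0.15 ± 0.09) and *Tef* (0.09 ± 0.09) did not separate the livers, at mean signals of 2.94 and 4.56. The remaining 3 genes of the arm overlapped with the other livers. *Nr1d1*, which represses *Arntl*, differed by 0.27 ± 0.14, *Bhlhe40*, a further repressor at E-boxes, by 0.47 ± 0.24, and *Bhlhe41* by 0.00 ± 0.06 at a signal of only 3.85 to 4.12 in the chosen number, below the median of all probe set means (4.53).

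The morning arm went the other way. Of its 6 measured genes, 3 lay below every other liver of their genotype on all 4 arrays, against 1.69% of all genes. *Arntl* read 5.62 and 5.20 in tg and 4.61 and 3.87 in wt livers of the chosen number, and 7.53 to 8.09 on the other 16 arrays, a difference of -3.02 ± 0.17 log2 units or 8.11-fold lower. *Npas2*, which can stand in for *Clock*, read 3.66, 3.92, 3.75 and 3.47 against 5.44 to 6.44, a difference of -2.15 ± 0.13. *Npas2* lay below the median of all probe set means on all 4 arrays, where background sets a floor under the signal. The second probe sets of *Arntl* and *Npas2* differed by only -0.27 ± 0.12 and -0.19 ± 0.11 and did not separate the livers, at mean signals of 4.46 and 4.04. *Nfil3*, which also chose the number, is the third, so the count of 3 is a description only.

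*Clock*, the partner of BMAL1, split by genotype on the probe set that stands for it. The tg livers of the chosen number read 7.67 and 7.57, inside the range of the other tg livers (7.36 to 7.95). The wt livers read 6.75 and 6.94, below all other wt livers (7.68 to 7.93). *Cry1*, a repressor that peaks late in the night, differed by -0.61 ± 0.20 and *Rora*, an activator of *Arntl*, by -0.27 ± 0.11, and both overlapped with the other livers.

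None of the 6 measured genes for kinases, ubiquitin ligases and other proteins that act on clock proteins was past the threshold or separated on all 4 arrays. *Csnk1d*, a kinase of the PER proteins, differed by 0.04 ± 0.08 and *Csnk1e* by 0.08 ± 0.08. *Gsk3b* differed by -0.01 ± 0.11, *Btrc* by -0.09 ± 0.08, *Fbxl21* by 0.07 ± 0.06 and *Timeless* by 0.38 ± 0.22.

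The mean of the 12 evening-arm genes minus the mean of the 6 morning-arm genes places every array on a single scale. *Dbp* and *Nfil3*, on which the number was chosen, are part of this index, so its values are a description only. It was 0.87 and 1.08 in the tg livers and 1.77 and 1.94 in the wt livers of the chosen number. The other 16 arrays fell between -1.81 and -1.28, so the numbers did not overlap, and within the chosen number both wt livers lay farther from the other numbers than both tg livers. Leaving out any single array and the other settings tried on the same probe sets turned the sign of no evening-arm or morning-arm gene except *Bhlhe41*, whose difference is near 0. Among the genes that act on clock proteins, *Csnk1d* and *Gsk3b*, also near 0, changed sign when single arrays were left out.

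Across the array, 2245 probe sets were higher (4.98% of 45101) and 1726 lower (3.83%) in the chosen number at an adjusted p under 0.05 with genotype in the model. Taken as 1 probe set per gene, 1256 of 18194 genes were higher (6.9%) and 885 lower (4.86%). Within tg livers, 3207 probe sets were higher (7.11%) and 1811 lower (4.02%). Within wt livers, 589 were higher (1.31%) and 537 lower (1.19%). The same model with another label number in place of the chosen number gave 0 calls for the number of the tg_1407 and wt_1407 arrays and for that of tg_1420 and wt_1420, 1 for that of tg_1371 and wt_1371, 1 for that of tg_14231 and wt_14231 and 7 for that of tg_1386 and wt_1386. These counts rested on single arrays: without tg_1423_2-8_1 the higher and lower calls were 1135 and 824, and without tg_1423_2-8_4 they were 1031 and 972. With the mean of 11 male-biased genes as a covariate, described further on, they were 317 and 367.

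Differences in tg and in wt livers, which share no array, had a Pearson r of 0.43 over the 18194 genes, a description over genes that are not independent. Over all probe sets r was 0.40. In the 5 other numbers, tg and wt deviations from the means of their genotypes had r of 0.16 to 0.39 over probe sets. Such agreement is therefore not particular to the chosen number. Of the 3971 probe sets called with genotype in the model, 457 were past the threshold within each genotype on its own. The p values measure only the spread between these livers.

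**Figure D2:**
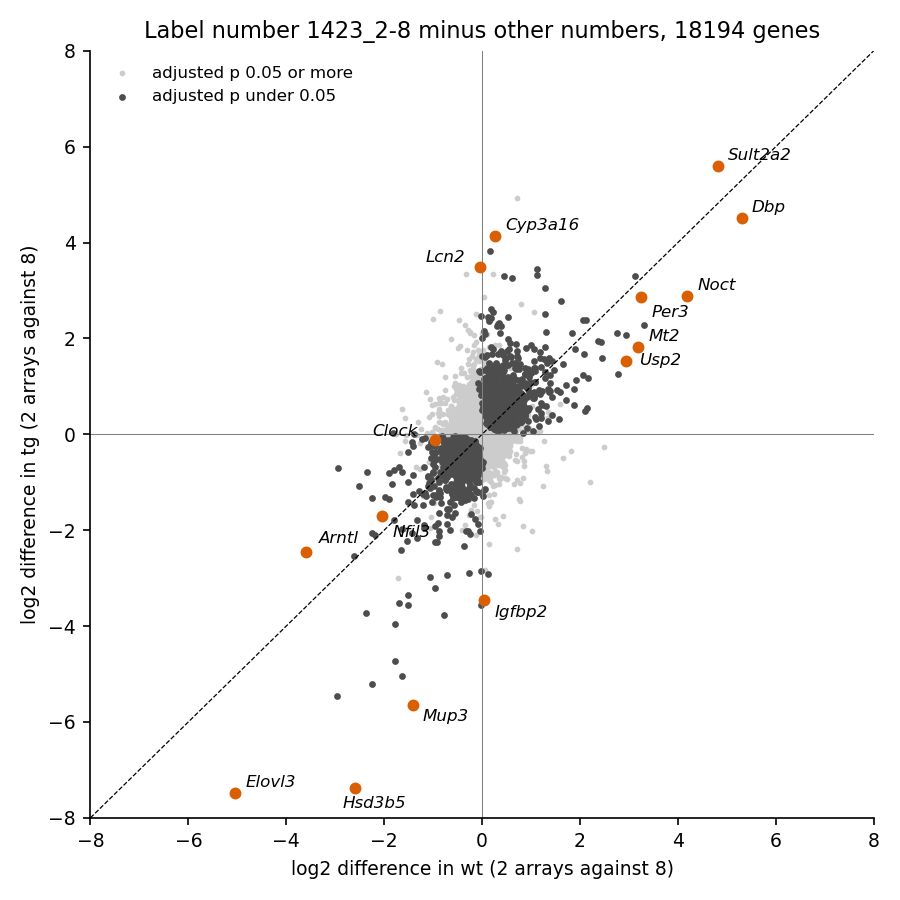
Log2 difference between the chosen number and the other numbers in wt (x axis) and in tg livers (y axis), each from 2 against 8 arrays, for 18194 genes. Dark points were past an adjusted p of 0.05 with genotype in the model, orange points are named, and the dashed line marks equal differences. *Dbp* and *Sult2a2* lie far out on both axes, while *Cyp3a16* (4.13 in tg, 0.26 in wt) differed in tg livers.

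Many genes that carry the clock's rhythm into liver metabolism differed as well. Of 18 measured, 10 were higher and 4 lower, where 6.9% and 4.86% of all genes were called, and 6 and 3 of them separated on all 4 arrays. *Usp2*, a ubiquitin protease, read 7.29 and 7.60 in tg and 8.85 and 8.73 in wt livers of the chosen number, against 5.62 to 6.11 elsewhere, a difference of 2.24 ± 0.17. Its second probe set gave 4.41 ± 0.21. *Noct*, the gene of nocturnin, an enzyme that removes a phosphate from NADPH, read 9.34, 9.23, 9.73 and 9.40, against 3.98 to 8.41 in the other tg and 4.37 to 7.96 in the other wt livers. Its 3.53 ± 0.66 is a large difference on top of a wide spread among the other livers.

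Enzymes that limit whole pathways were in the same group. *Alas1*, the rate-limiting step of heme synthesis, read 11.43 and 11.71 in tg livers and 10.78 and 11.90 in wt livers of the chosen number, above 7.58 to 10.80 in the other tg and 7.28 to 9.98 in the other wt livers, a difference of 2.79 ± 0.49. *Nampt*, which limits the salvage of NAD, was higher by 0.92 ± 0.12 and *Slc2a2*, the glucose transporter GLUT2, by 0.69 ± 0.09, each on all 4 arrays. *St3gal5* (ganglioside synthesis) was higher by 1.37 ± 0.24 and the cell cycle kinase gene *Wee1* by 1.13 ± 0.18. *Upp2*, which breaks down uridine, was higher by 1.29 ± 0.24. *Gys2*, the liver glycogen synthase, was higher by 0.61 ± 0.10 and *Gne*, of sialic acid synthesis, by 0.55 ± 0.16. For these last 3 genes the difference in tg livers was much smaller than in wt livers, as given below.

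On the other side, *Lonrf3* was lower by 1.04 ± 0.13 and *Ppard*, a nuclear receptor for fatty acids, by 1.19 ± 0.22, both on all 4 arrays. The vasopressin receptor gene *Avpr1a* differed by -1.60 ± 0.28 with overlap in wt livers. *Elovl3*, an elongase of very long chain fatty acids, read 3.78 and 4.19 in tg and 9.92 and 3.59 in wt livers of the chosen number, against 8.83 to 12.53 elsewhere, and with -6.26 ± 0.73 had the largest difference of all genes. *Elovl3* is a gene of male liver too and returns with that list. *Cyp7a1*, the rate-limiting enzyme of bile acid synthesis, differed by 0.80 ± 0.33, *Rgs16* by 0.09 ± 0.42, *Inmt* by 0.26 ± 0.09 and *Tspan4* by 0.23 ± 0.09, and none of these was past the threshold.

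**Figure D3:**
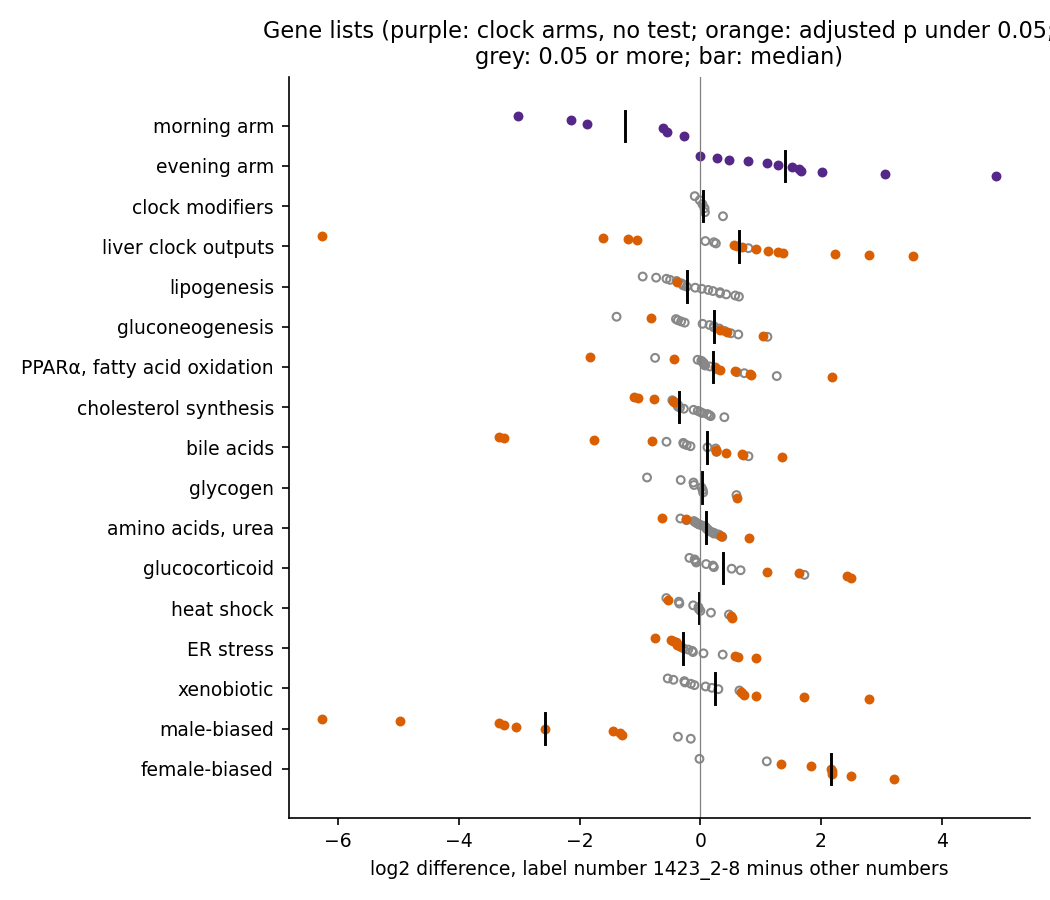
Log2 difference between the chosen number and the other numbers (x axis) for each measured gene of 17 lists (rows). Purple points are the clock arms, for which no threshold was used, orange points were past an adjusted p of 0.05, grey circles were not, and bars are list medians. Lipogenesis holds 1 orange point of 19 genes, and the male-biased and female-biased lists lie on opposite sides with medians of -2.57 and 2.17.

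Genes of feeding and fasting are taken by pathway. Of 19 genes of fatty acid synthesis and its control by insulin, 0 were higher and 1 was lower, against 6.9% and 4.86% of all genes, and their median of -0.22 compares with 0.00 over all genes. The called gene is *Elovl5*, an elongase of polyunsaturated fatty acids (-0.39 ± 0.09). Without tg_1423_2-8_4 the *Elovl5* call was lost, and without wt_1423_2-8_9 the lower calls numbered 5. *Srebf1*, the regulator of this programme, read 10.77 and 10.94 in tg and 10.78 and 11.05 in wt livers of the chosen number, inside the ranges of 9.92 to 11.09 and 9.99 to 11.02 except for a narrow excess on the last array. *Fasn*, fatty acid synthase, differed by -0.39 ± 0.34, with 9.85 and 11.99 in the wt livers.

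Of 18 genes of gluconeogenesis and fasting, 3 were higher and 1 lower, against 6.9% and 4.86% of all genes. *Pck1*, the rate-limiting enzyme of gluconeogenesis, read 12.91 and 12.88 in tg and 12.71 and 12.98 in wt livers of the chosen number, above all other livers of their genotype (11.05 to 12.48 in tg, 11.40 to 12.51 in wt), a difference of 1.03 ± 0.23. *Irs2*, an adaptor of the insulin receptor, was lower on all 4 arrays, by 0.81 ± 0.15. *Foxo1*, a factor that insulin keeps out of the nucleus, was higher by 0.45 ± 0.12 and *Creb3l3* by 0.33 ± 0.08. *G6pc*, which releases glucose, differed by -0.26 ± 0.26 and *Ppargc1a*, a coactivator of fasting, by 0.40 ± 0.18, without passing. Without tg_1423_2-8_4 there was 1 higher call.

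Among 22 targets of PPARα, the receptor that switches on fatty acid oxidation, 6 were higher and 2 lower, against 6.9% and 4.86% of all genes. *Cpt1a*, which admits fatty acids to the mitochondrion, read 10.82 and 10.93 in tg and 10.93 and 10.76 in wt livers, above 9.71 to 10.27 elsewhere, a difference of 0.85 ± 0.10. The thioesterase genes *Acot3* and *Acot4* were higher by 2.18 ± 0.37 and 0.83 ± 0.25, and *Acot3* is a female-biased gene as well. The *Acot4* call held in only 10 of the 20 fits that left out 1 array. *Pdk4*, which shuts pyruvate out of oxidation in fasting, was lower. It read 6.38 and 6.34 in tg livers, inside the range of the other tg livers (6.24 to 7.87), and 4.55 and 4.90 in wt livers, below the other wt livers (6.96 to 8.40). *Fgf21*, a fasting hormone, differed by -0.75 ± 0.34 and *Angptl4*, an inhibitor of lipoprotein lipase, by 0.73 ± 0.59. Without tg_1423_2-8_4 the higher calls numbered 3, and the lower calls numbered 1 without any of 12 single arrays.

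Cholesterol synthesis had 0 genes higher and 5 lower of 20, against 6.9% and 4.86% of all genes, with a median of -0.35. *Fdps*, which makes farnesyl diphosphate, read 9.81 and 10.42 in tg and 10.31 and 10.47 in wt livers of the chosen number, below all other livers (10.74 to 11.77), a difference of -1.03 ± 0.15. *Pmvk* and *Mvk*, the neighbouring kinases of mevalonate, differed by -1.09 ± 0.18 and -0.46 ± 0.10 and *Sc5d*, of the late pathway, by -0.76 ± 0.13. *Hmgcs1* (-0.46 ± 0.17) and *Sqle* (-0.04 ± 0.17) were not past the threshold.

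Genes of bile acid synthesis and transport were called in both directions, 6 higher and 4 lower of 19, against 6.9% and 4.86% of all genes. *Cyp8b1*, which sets the share of cholic acid, read 8.75 and 8.47 in tg livers and 10.58 and 8.62 in wt livers of the chosen number, against 9.87 to 11.53 elsewhere, a difference of -1.75 ± 0.28. *Cyp7b1*, of the alternative pathway, and the uptake transporter gene *Slco1a1* were lower by 3.25 ± 0.86 and 3.34 ± 0.57. A further uptake transporter, *Slco1a4*, was higher by 1.35 ± 0.30. In all 4 genes wt_1423_2-8_3 lay with the other wt livers and not with the 3 other arrays of its number. Without tg_1423_2-8_1 or without tg_1423_2-8_4 the lower calls numbered 2.

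Of 9 glycogen genes, 1 was higher (*Gys2*) and *Pygl*, the liver phosphorylase, differed by -0.11 ± 0.07. Of 25 genes of amino acid breakdown and the urea cycle, 2 were higher and 2 lower, shares close to the 6.9% and 4.86% of all genes. *Asns*, asparagine synthetase, was higher by 0.81 ± 0.24 and *Gpt*, an alanine aminotransferase, by 0.34 ± 0.08, while *Hal*, of histidine breakdown, differed by -0.64 ± 0.16 and *Cbs* by -0.23 ± 0.05. *Cps1*, the entry to the urea cycle, differed by 0.10 ± 0.06. Without tg_1423_2-8_1 0 genes of the list were called.

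Glucocorticoid targets showed 4 genes higher and 0 lower of 14, against 6.9% and 4.86% of all genes, and all 4 separated on all arrays, as did 2.51% of all genes. *Fkbp5*, a cochaperone of the glucocorticoid receptor, read 8.89 and 8.71 in tg and 8.90 and 8.82 in wt livers of the chosen number, above 7.65 to 8.67 in the other tg and 7.08 to 7.76 in the other wt livers, a difference of 1.11 ± 0.17. The metallothionein genes *Mt1* and *Mt2*, which also answer to zinc, were higher by 2.43 ± 0.62 and 2.50 ± 0.62, the latter with 10.09, 9.94, 10.76 and 11.63 against 6.13 to 9.72 elsewhere. *Per1* is the remaining gene. *Tat*, a classic target of the receptor, differed by 0.23 ± 0.27. Without wt_1423_2-8_9 the list had 2 calls.

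Heat shock genes, which follow body temperature, gave 2 calls higher and 1 lower of 12, against 6.9% and 4.86% of all genes. *Hspa8* and its partner *Dnaja1* were higher by 0.53 ± 0.15 and 0.51 ± 0.15 and *Hspa4l* was lower by 0.54 ± 0.14, and each overlapped with the other tg or wt livers. *Hspa1b*, the inducible member, ranged from 7.87 to 9.58 in the chosen number and from 6.33 to 11.77 elsewhere. Without tg_1423_2-8_1, tg_1423_2-8_4 or wt_1423_2-8_9 in turn, 0 heat shock genes were called higher. Of 15 immediate early genes, which mark recent stimulation or handling, 1 was higher (*Ier3*, 0.41 ± 0.12, at a signal below the median of all probe sets), and it was not called without tg_1407_3, tg_1423_2-8_1, tg_1423_2-8_4 or wt_1423_2-8_9. *Fos* differed by -0.57 ± 0.51 and *Egr1* by -0.64 ± 0.55.

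In the response to endoplasmic reticulum stress 3 genes were higher and 6 lower of 17, against 6.9% and 4.86% of all genes. *Sdf2l1*, of the chaperone complex, was lower on all 4 arrays, by 0.76 ± 0.13. *Herpud1* and *Dnajb9*, of protein disposal, were higher by 0.92 ± 0.26 and 0.57 ± 0.15 and *Trib3*, a pseudokinase, by 0.63 ± 0.15, but without tg_1423_2-8_1 or tg_1423_2-8_4 the higher calls numbered 1. *Hspa5*, the main chaperone, differed by 0.05 ± 0.13. Of 16 genes of foreign compound handling, 6 were higher and 0 lower, again against 6.9% and 4.86% of all genes. *Nr1i2*, the pregnane X receptor, read 8.23 and 8.18 in tg and 8.06 and 7.99 in wt livers of the chosen number, above 6.95 to 7.75 elsewhere, a difference of 0.92 ± 0.10. The efflux pump gene *Abcb1a* (1.72 ± 0.36) and *Cyp2b10* (0.73 ± 0.20) were higher except in wt_1423_2-8_3, which read 4.88 and 5.50, within the other wt livers.

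The greatest differences in size belonged to genes that differ between male and female liver. In mice these genes follow the pattern of growth hormone release, and males and females part at puberty. Of 11 male-biased genes 9 were lower and 0 higher (median -2.57), and of 9 female-biased genes 7 were higher and 0 lower (median 2.17), against 6.9% and 4.86% of all genes. *Elovl3* stands in this list too. Without tg_1423_2-8_1 the calls were 5 and 2, and without wt_1423_2-8_9 the female-biased calls numbered 3.

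These differences came from 3 of the 4 arrays. *Hsd3b5*, a steroid dehydrogenase of male liver, read 3.43 and 4.04 in the tg livers and 5.04 in wt_1423_2-8_9, but 11.88 in wt_1423_2-8_3, where the other livers ranged from 8.36 to 12.23. *Slco1a1* read 5.30, 5.51 and 7.20 on the same 3 arrays and 11.01 in wt_1423_2-8_3, and *Cyp7b1* read 5.32, 6.60 and 6.62 against 12.04. *Cyp2b9*, a cytochrome P450 of female liver, read 10.04, 9.03 and 10.84 against 5.07, and *Hao2*, an oxidase of hydroxy acids, 10.55, 10.48 and 10.82 against 7.06. *Cyp17a1*, which is counted with the female-biased genes, read 9.41, 8.25 and 10.75 against 6.50. The liver wt_1423_2-8_3 thus had the clock values of its number with the male-biased values of the other numbers.

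**Figure D4:**
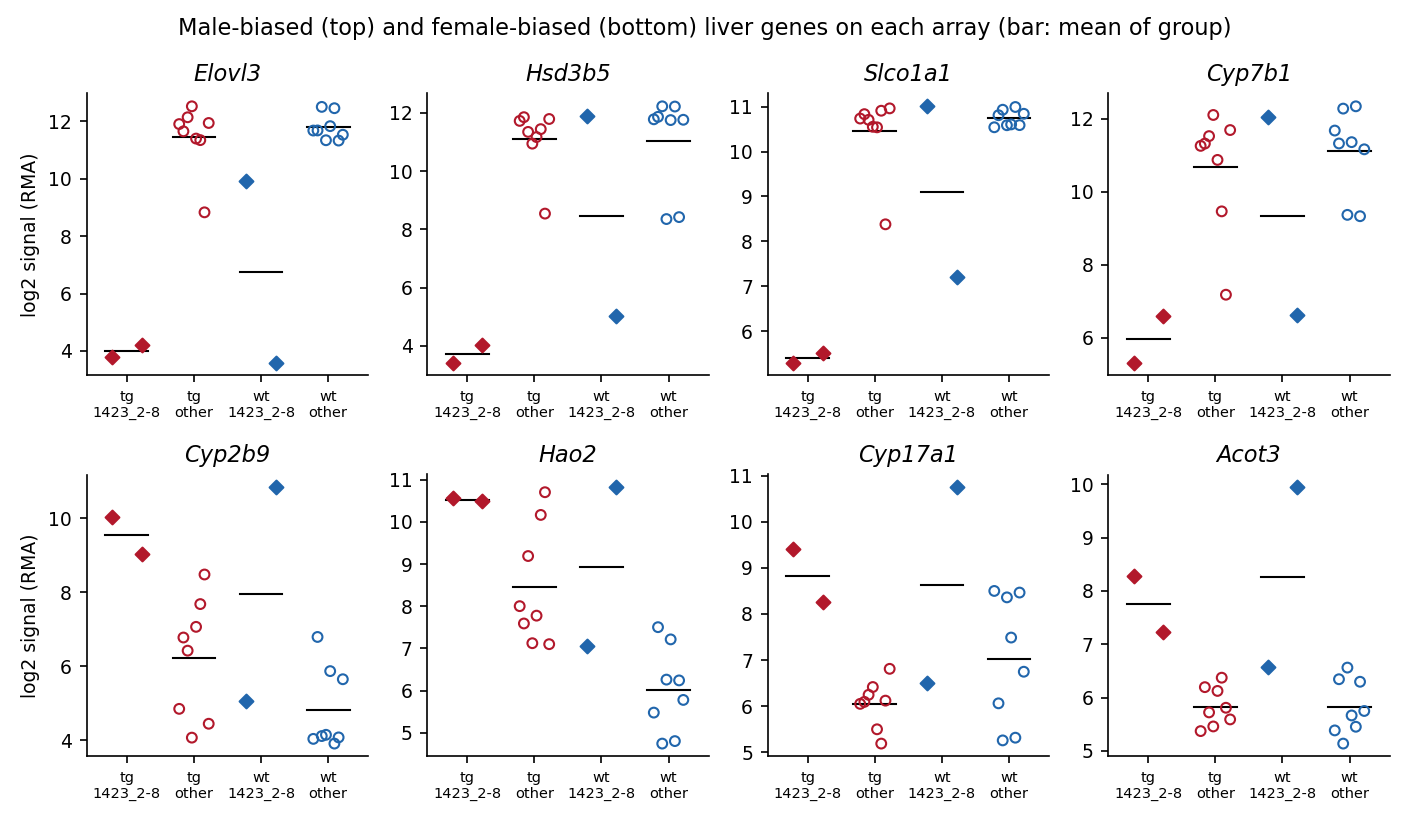
Log2 signal (y axis, RMA) of 4 male-biased (top) and 4 female-biased genes (bottom) on the 20 arrays, by genotype and label number (x axis). Diamonds are the livers of the chosen number, open circles those of other numbers, and bars group means. The wt diamonds lie far apart, with *Hsd3b5* at 11.88 in wt_1423_2-8_3 and 5.04 in wt_1423_2-8_9.

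On all 4 arrays only 2 of the male-biased and 2 of the female-biased genes separated from the other livers of the same genotype. The former are *Elovl3* and *Cyp4a12a*, a fatty acid hydroxylase that read 8.50, 10.49 and 7.34 on the 3 arrays and 11.81 in wt_1423_2-8_3. The latter are *Acot3* and *Fmo2*, a flavin monooxygenase that read 10.09, 9.84, 9.74 and 9.52 and was the only one of the 4 with wt_1423_2-8_3 level with its group. Genes of the sex chromosomes did not go with these values. The Y-linked gene *Eif2s3y* read 8.95 to 9.14 in the chosen number and 8.92 to 9.57 elsewhere. *Xist*, which is transcribed from the inactive X of female cells, read 3.93 to 4.21 in the chosen number and 3.51 to 4.74 elsewhere. All 20 arrays thus read these 2 genes as male cells do, with *Eif2s3y* far above and *Xist* near or below the median of all probe set means (4.53).

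Male-biased minus female-biased means were -2.43 and -1.30 in the tg livers, -3.06 in wt_1423_2-8_9 and 3.49 in wt_1423_2-8_3. The other 16 arrays ranged from 0.78 to 5.00. The lowest of them was tg_1420_4, which had a clock index of -1.81, the lowest of all arrays. The clock index and this index therefore did not go together in wt_1423_2-8_3 or in tg_1420_4. Growth hormone axis genes had 0 calls of 10, and *Igf1*, its main circulating effector, differed by -0.29 ± 0.10. The list still leaned lower, with a median difference of -0.289. Its mean signal was 8.23 to 8.27 in the chosen number, against 8.05 to 8.96 in the other tg and 8.535 to 9.002 in the other wt livers. Without wt_1423_2-8_3 the list had 3 lower calls.

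**Figure D5:**
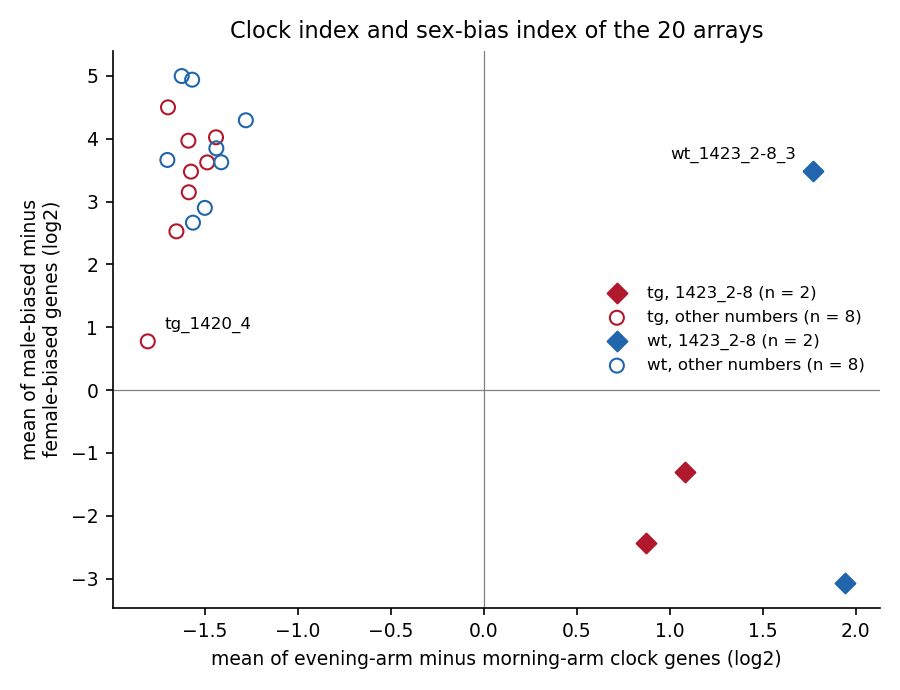
Mean of the evening-arm minus mean of the morning-arm clock genes (x axis, log2) and mean of the male-biased minus mean of the female-biased genes (y axis, log2) for each of the 20 arrays. The x axis includes *Dbp* and *Nfil3*, on which the number was chosen. All diamonds (chosen number) lie right of 0 and all circles (other numbers) left of -1.28, while wt_1423_2-8_3 lies at 3.49 on the y axis among the circles.

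With the mean of the male-biased genes as a covariate, the *Dbp*, *Per3*, *Arntl*, *Npas2* and *Nfil3* differences kept their direction. In that fit only 317 of the 45101 probe sets were called higher and 367 lower, so the shares of the main fit do not apply to it. Counts in the lists became 5 higher and 3 lower for the clock outputs, 0 and 6 for cholesterol synthesis and 1 and 0 for bile acids. They were 2 and 1 for PPARα targets, 1 and 0 for glucocorticoid targets and 2 and 0 for foreign compound handling. The covariate itself contains *Elovl3* of the clock outputs and *Cyp7b1* and *Slco1a1* of the bile acid genes. The 1 higher bile acid call is *Cyp7b1*, so these 2 lists were in part adjusted for their own members. Of the 76 named genes with a call, 20 kept it and 9 took the opposite sign, *Cyp7b1* with a call of its own (1.64). What part the sex-biased genes have in the other differences was not tested beyond these values.

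Beyond the lists, the 10 largest differences in each direction were drawn mostly from the genes already described. *Sult2a2*, a sulfotransferase of steroids and bile acids, was higher by 5.21 ± 0.73, with 9.90, 10.13 and 12.46 on 3 arrays and 5.19 in wt_1423_2-8_3, which barely exceeded the other wt livers (3.56 to 5.15). *Cyp2b9*, *Hao2* and *Prom1* were among the 10 with the same exception. On the lower side, *Serpina4-ps1*, a pseudogene of the serpin family, differed by -4.21 ± 0.78, and the major urinary protein genes *Mup10* and *Mup3* by -3.73 ± 0.76 and -3.53 ± 0.59. Mup genes are near-identical copies, so a probe set may read several of them. *Ugt2b38* differed by -3.05 ± 0.71 and *Gm7969* by -2.88 ± 0.38, the latter on all 4 arrays with 3.52, 3.25, 6.36 and 4.29 against 6.69 to 8.47 elsewhere.

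Whether tg and wt livers differ in the size of the label number difference was tested as an interaction in limma. The number was chosen on *Dbp* and *Nfil3* of these same livers, and whether that choice bears on this test was not examined. The interaction was past an adjusted p of 0.05 for 566 probe sets in the positive direction (1.25%) and 245 in the negative direction (0.543%). Positive means that the tg difference, with its sign, lay above the wt difference. Of the 12 evening-arm genes 2 passed and of the 6 morning-arm genes 2, where 450 of the 18194 genes did, and in these 4 genes the difference was smaller in tg livers. Others of the arms were level or larger in tg livers, such as *Per2* with 1.29 in both genotypes and *Hlf* with 1.26 in tg and 0.94 in wt, and did not pass. *Ciart* was higher by 1.17 in tg and by 2.16 in wt livers, an interaction of -0.99 ± 0.14 (limma, adjusted p = 0.00185). *Usp2* was higher by 1.53 and 2.95, an interaction of -1.42 ± 0.15 (adjusted p = 1.5e-04). *Arntl* was lower by 2.45 in tg and 3.59 in wt livers in the same fit (interaction 1.15 ± 0.23, adjusted p = 0.0163). *Clock* (0.85 ± 0.15, adjusted p = 0.00938) and *Tef* (-0.86 ± 0.17, adjusted p = 0.0168) also passed.

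*Ciart* and *Usp2* passed without any 1 of the 20 arrays. *Arntl* was not called without tg_1423_2-8_1 or without wt_1423_2-8_9, and *Clock* and *Tef* were not called without tg_1423_2-8_1 or without wt_1423_2-8_3, with adjusted p up to 0.151, 0.0821 and 0.167. *Per2* and *Npas2* were not past the threshold in this test. The 2 genes that chose the number, *Dbp* with 4.51 in tg and 5.30 in wt livers and *Nfil3* with -1.70 and -2.05, are given as a description only. Each side of this test rests on 2 livers of the number.

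Among metabolic genes *Upp2* (0.49 in tg, 2.10 in wt, limma interaction, adjusted p = 0.0232), *Gys2* (0.29 and 0.93, adjusted p = 0.0191), *Gne* (0.06 and 1.05, adjusted p = 0.0388) and *Pdk4* (-0.71 and -2.94, adjusted p = 0.0423) shared the smaller shift in tg livers. Each of these calls was lost without tg_1423_2-8_1, and *Pdk4* and *Gne* were lost without 12 of the 20 arrays in turn. The largest interactions lay in other genes. *Cyp3a16*, a cytochrome P450 of immature liver, read 7.25 and 6.14 in tg and 2.30 and 2.82 in wt livers of the chosen number, with 2.30 to 4.02 in the other tg livers (3.87 ± 0.45, adjusted p = 2.6e-04). It passed without any 1 of the 20 arrays.

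*Cdhr2*, a cadherin of microvilli, read 8.14 and 8.52 in tg and 4.03 and 4.02 in wt livers (3.66 ± 0.73, adjusted p = 0.0151). *Lcn2*, an acute phase protein, read 10.26, 10.33, 4.95 and 6.76 (limma interaction 3.54 ± 0.89, adjusted p = 0.0436). Its call held in 3 of the 20 fits that left out 1 array, and was lost with each label number as a block (limma, adjusted p = 0.0550). *Igfbp2*, a binding protein of insulin-like growth factors, read 7.38, 6.68, 11.36 and 9.78 (limma interaction -3.50 ± 0.84, adjusted p = 0.0362). *Mup3* read 7.12, 8.10, 13.64 and 10.49 (limma interaction -4.22 ± 0.74, adjusted p = 0.00800), and *Hectd2os* 4.35, 3.25, 7.81 and 6.37 (-3.53 ± 0.79, adjusted p = 0.0270). In these 5 genes tg_1420_4 was the other tg liver nearest to the tg livers of the chosen number, at 7.06 for *Cdhr2* and 9.36 for *Lcn2*. Of the 5, none kept its call without tg_1423_2-8_1, and *Igfbp2* kept it in 12 of the 20 fits.

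Of the markers of liver progenitor cells that the study follows in these livers, 6 were analysed here. They gave 1 call, where 6.9% of all genes were called higher and 4.86% lower. *Prom1*, the gene of CD133, read 10.21 and 10.10 in the tg livers of the chosen number, next to a range of 4.78 to 9.85 in the other tg livers, and 4.31 and 6.94 in the wt livers. Its call was lost without tg_1423_2-8_1, tg_1423_2-8_4 or wt_1423_2-8_9. *Afp* read 11.04 and 10.90 in tg livers (others 6.16 to 12.26) and *Bex1* 10.19 and 9.42 (others 5.68 to 9.81), and neither was called. Of 13 fetal liver genes 0 were called, and of 14 interferon-induced genes 0, with *Ifit1* at -0.01 ± 0.41. Of 19 cell cycle genes 2 were higher and 0 lower, against the same 6.9% and 4.86% of all genes. These were the cyclin genes *Ccne2* (1.15 ± 0.25) and *Ccnd1* (1.02 ± 0.19), while *Top2a*, a marker of dividing cells, differed by -0.36 ± 0.27. The median difference of the list was -0.14.

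Hepatocyte markers were at 13.47 to 13.58 on average in the chosen number and 13.39 to 13.54 elsewhere, with 1 call of 12 (*Hnf4a*, 0.34 ± 0.08). Of 12 markers of endothelial cells, 5 were called lower and separated on all 4 arrays, where 4.86% of all genes were called lower and 1.69% separated. *Tek* differed by -0.55 ± 0.09, *Eng* by -0.37 ± 0.07, *Clec4g* by -0.44 ± 0.08, *Emcn* by -0.75 ± 0.14 and *Fcgr2b* by -0.47 ± 0.10. With the male-biased covariate 2 of the 5 were called, and the calls of *Eng*, *Emcn* and *Fcgr2b* were lost. In whole liver, fewer cells of a type and less RNA per cell cannot be told apart. Of 14 macrophage genes 2 were lower (*Lyz2* -0.39 ± 0.09, *Mrc1* -0.35 ± 0.11), of 12 bile duct genes 1 (*Krt19* -0.40 ± 0.10), of 5 erythroid genes 1 (*Alas2* -1.14 ± 0.19) and of 10 fat, muscle and pancreas genes 1 (*Cela1* -1.33 ± 0.25). The *Mrc1* call held in only 9 of the 20 fits that left out 1 array. Lymphocyte, neutrophil and stellate cell genes had 0 calls of 12, 8 and 13.

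The mean log2 signal of the 12 endothelial genes ranged from 6.01 to 6.29 in the chosen number and from 6.13 to 6.61 elsewhere. A sign of RNA quality, the 3′ minus 5′ signal of control genes, was 0.79, 0.86, 1.02 and 0.92 in the chosen number and 0.56 to 0.92 elsewhere, and its part in the differences was not tested. 2 near-identical pairs of wt arrays of other numbers (wt_1407_2 with wt_1420_6, wt_1407_5 with wt_1420_7) had SDs of their log2 difference of only 0.168 and 0.172. The lowest SD of any pair, 0.155, was between wt_1386_4 and tg_1386_9, which differ in genotype. The tg pair of the chosen number had 0.224 and its wt pair 0.314. On the mean of the progenitor markers wt_1386_4 was the highest of the other wt arrays (6.51). Why it was so close to a tg array was not tested. With each of the 2 near-identical wt pairs averaged, wt medians above rest on 6 profiles. The direction of every named call was then kept. The calls of *Gne*, *Asns*, *Prom1* and *Mrc1* and the interactions of *Gne*, *Pdk4*, *Lcn2* and *Igfbp2* were lost.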

How the data were processed

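Liver RNA of 20 mice was read on Affymetrix Mouse Genome arrays. The authors normalized the arrays by RMA (version not given in the sources used here), and the deposited log2 values of 45101 probe sets were used unchanged. RMA gives all arrays nearly the same distribution, so differences are relative to the average probe set (median difference -0.01). Array medians were 4.46 to 4.55, and the number of livers limits the precision.

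Groups came from sample titles. limma 3.58.1 (R 4.3.3) fitted genotype and label number (the chosen one or another) to 20 arrays, and 4 group means for the differences within tg, within wt and between both, with adjustment by Benjamini-Hochberg over all probe sets and a threshold of 0.05. SEs are those of the moderated fit. Of the probe sets, 34958 carry 1 gene symbol, 932 several and 9211 none here, and 34897 symbols matched RefSeq GRCm38.p6. The probe set with the highest mean stands for a gene, which gave 18194 genes.

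The label number and the 33 gene lists (469 genes, 413 on the array) were chosen with earlier results of these data known. The lists come from general knowledge, save the progenitor markers, which the study shows on these livers. Named were all clock genes, up to 4 called genes per list with the same sign in both genotypes, up to 2 well known others, the 10 largest differences each way (mean of at least 4.53 in either group) and the 6 largest interactions. Called cell type markers, the endothelial markers without a call, *Cyp4a12a* and *Fmo2* were named after their values were seen. The functions were tested on simulated data. Alternatives covered the number as a random block, averaged or omitted arrays, normalization, filters, weights and covariates. Figures were drawn with matplotlib 3.10.9 in Python 3.11.15. In the 5 other label numbers, tg and wt livers of the same number deviated together from the means of their genotypes (r over probe sets 0.16 to 0.39), and each tg profile correlated best with the wt profile of its number. A gene of the morning-arm list is not reported here.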

Additional observations from a re-analysis of the deposited data

Results flagged for a closer look

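Among the named genes, 252 groups of 8 tg livers or 6 wt profiles of other numbers were searched for a liver far from the rest by Dixon's criterion, which by chance alone marks about 1 group in 20, and 24 livers stood out. In tg livers 13 of the 24 were tg_1420_4, at 7.01 for *Cry2*, 8.83 for *Elovl3*, 11.91 for *Slc2a2*, 8.38 for *Slco1a1*, 10.48 for *Hal*, 4.32 for *Ier3*, 7.11 for *Abcb1a*, 8.54 for *Hsd3b5*, 11.55 for *Mup3*, 4.02 for *Cyp3a16*, 7.06 for *Cdhr2*, 5.39 for *Hectd2os* and 8.97 for *Cela1*. On each of these genes this liver lay on the side of the tg livers of the chosen number. The other tg livers that stood out were tg_1420_14 for *Clock* (7.36) and *Gpt* (10.18), tg_14231_6 for *Rgs16* (9.91) and tg_1420_12 for *Asns* (4.52).

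In wt livers, where the near-identical arrays were averaged, the profile of wt_1407_5 and wt_1420_7 stood out for *St3gal5* (7.93), *Hsd3b5* (8.39), *Tek* (6.24) and *Mrc1* (8.35), wt_1407_2 with wt_1420_6 for *Per2* (5.85), wt_1420_1 for *Gm7969* (7.98) and wt_1386_4 for *Bex1* (6.80).

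For 15 named genes the label number difference was not the same in both genotypes by the interaction in limma. The tg difference minus the wt difference was 1.15 for *Arntl*, 0.85 for *Clock*, -0.86 for *Tef*, -0.99 for *Ciart*, -1.42 for *Usp2*, -1.62 for *Upp2*, -0.64 for *Gys2*, -0.99 for *Gne* and 2.23 for *Pdk4*. It was -4.22 for *Mup3*, 3.87 for *Cyp3a16*, 3.66 for *Cdhr2*, 3.54 for *Lcn2*, -3.53 for *Hectd2os* and -3.50 for *Igfbp2*.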

How the results depend on the processing

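With the label number as a random replicate block (consensus correlation 0.00098) every count stayed within 1.5 times its value. Leaving out each array in turn gave 1031 to 2883 higher and 824 to 2165 lower probe sets with genotype in the model, 1027 to 4256 and 392 to 2657 within tg, 126 to 749 and 185 to 717 within wt, 0.146% to 4.05% positive and 0.0288% to 1.75% negative of all probe sets tested for the interaction (1.25% and 0.543% with every array), and 794 to 1636 above and 581 to 1174 below on all arrays of the number (784 and 570 with every array). The highest values of these fits came without tg_1420_4, and those of the separation without wt_1423_2-8_3 (1636 and 1174), where the groups hold fewer arrays.

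Higher and lower calls with genotype in the model were 974 and 789 with 1 profile per number and genotype, 317 and 367 with the male-biased mean as a covariate and 192 and 158 at 2-fold. Within tg they were 1741 and 942 against the tg_1407, wt_1407, tg_1420 and wt_1420 arrays alone, 505 and 250 at 2-fold and 100 and 73 with the covariate, with 1151 lower calls from 1 profile per number and 2927 with array weights. Within wt they were 167 and 205 with 1 profile per number and 123 and 109 at 2-fold, with 354 lower calls from averaged pairs. For the interaction, the percentages of probe sets called positive and negative were 0.437 and 0.195 with 1 profile per number, 2.62 and 1.08 with *Xist* as a covariate, 0.186 and 0.0953 against the tg_1407, wt_1407, tg_1420 and wt_1420 arrays, 3.16 and 1.41 with array weights, 0.481 and 0.169 at 2-fold, 0.268 and 0.137 with the male-biased covariate, 0.65 and 0.259 with averaged pairs, 0.769 and 0.35 without tg_1386_9 and wt_1386_4, and 4.05 and 1.75 without tg_1420_4. They were 3.3 and 1.56 over the probe sets at or above the median mean signal, where fewer probe sets were tested and the percentages are of those. For the other changes the cause was not tested.

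The label number contrast itself admits no fixed replicate block, since the number is what is compared. For the interaction, pairing tg and wt livers by label number as a fixed replicate block, an alternative chosen after seeing the data, gave 1.64% positive and 0.663% negative calls, and of the 15 named interactions 14 kept their call. Of the 76 named genes with a call, 43 kept it without any 1 array, and 39 in 14 further settings. With the male-biased covariate 9 took the opposite sign: *Cyp7b1* (1.64), *Abcb1a* (-0.10), *Cyp2b10* (-0.065), *Prom1* (-0.42), *Hsd3b5* (0.46), *Cyp17a1* (-0.12), *Mup10* (0.44), *Ugt2b38* (0.64) and *Hectd2os* (0.48). The covariate contains *Cyp7b1*, *Hsd3b5* and *Ugt2b38* itself. No threshold was used for the second probe sets of the clock arms. Those of *Per2*, *Per3*, *Hlf* and *Dbp*, which chose the number, lay above the other livers of their genotype on all arrays of the number. Those of *Nr1d2*, *Tef* and *Bhlhe41* overlapped. In the morning arm those of *Arntl*, *Clock*, *Npas2* and *Rora* overlapped.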
